A study of Mus musculus with 2 samples.

Results

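Ibsp, Spp1, Runx2, Sp7, Alpl, Sparc, Bglap and Dmp1 are 8 of the 32285 genes in the count matrix and are known from cells that build and mineralise bone. The 8 genes were chosen by name after earlier measurements of these libraries were known, namely their UMI counts, their overlap with the muscle genes Acta1 and Ttn, their spread over barcode segments and the fragments at their promoters. Those quantities are therefore given as descriptions. SPARC-seq profiles transcripts and accessible DNA under shared barcodes, and 1 RNA library and 1 chromatin accessibility library were analysed. Both came from brain tissue of C57BL/6 embryos at E18.5 with a homozygous Ctcf mutation, made with CRISPR/Cas9 and named CTCF-R567W. The labels do not give the number of embryos. No library of another genotype was used here, so no value below is an effect of the mutation. The barcodes have 16 bases in a first and a second segment of 8 bases each, and every barcode is read here as a spot that can hold several cells. All intervals are 95% intervals for counting error only, and neither spots nor segments are replicates.

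Bone is laid down by osteoblasts, which secrete a matrix rich in type I collagen and then mineralise it. The transcription factor Runx2 starts this programme and Sp7 acts after it. Alpl, a phosphatase of the cell surface, supplies phosphate for mineral, Ibsp, Spp1 and Dmp1 are acidic proteins that bind it, Sparc binds collagen, and Bglap (osteocalcin) marks mature osteoblasts. None of these RNAs is strictly confined to bone: Sparc is widespread in connective tissue and vessels, Alpl is found in brain vessels and Spp1 in macrophages. In an embryonic head, bone-forming cells lie in the skull and face and not in the brain itself.

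The 1992 kept spots held 8711132 UMIs, with a median of 4157 UMIs per spot (907 to 12442), and 46993860 fragments, with a median of 21705 (5759 to 87572). Neuronal RNA was present, as the brain label asks, with 5842 UMIs of Map2 and 5300 of Gap43. Skeletal muscle RNA was also present: Acta1 (skeletal muscle actin) had 6383 UMIs and Ttn (titin) had 5966. Ctcf had 734 UMIs.

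The members differed widely in UMI count. Runx2 (ENSMUSG00000039153, GRCm38 chromosome 17, 44495987 to 44814797, minus strand) had 341 UMIs, or 39.1 UMIs per 1000000 UMIs (CPM; 35.1 to 43.5, exact Poisson interval). They lay in 292 spots, 14.7% of all, with at most 4 in a spot. Sp7 (ENSMUSG00000060284, chromosome 15, 102356606 to 102367182), the factor that follows Runx2, had 6 UMIs in 6 spots. Runx2 shares its interval with other genes. Supt3, on the opposite strand, had 739 UMIs, and the antisense genes Runx2os1, Runx2os2 and Runx2os3 had 8, 3 and 0. Whether counting used strand is not given in the sources used here, so part of the Runx2 count may come from reads of these genes, here and in the Runx2 ratios below.

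Alpl (ENSMUSG00000028766, chromosome 4, 137741733 to 137796384) had 222 UMIs or 25.5 CPM (22.2 to 29.1), in 196 spots (9.84%) and with at most 3 in a spot. Sparc (ENSMUSG00000018593, chromosome 11, 55394500 to 55423183) had 5297 UMIs or 608 CPM (592 to 625) and was seen in 1689 spots, 84.8% of all. Sparc alone made up 86.5% of the 6127 UMIs of the 8 members, so no sum over the members is used for RNA below. Bglap (ENSMUSG00000074483, chromosome 3, 88383501 to 88384464) had 13 UMIs in 13 spots. Its neighbouring paralogues Bglap2 and Bglap3 had 6 UMIs each. The 3 copies are nearly identical in sequence, and how shared reads were assigned among them was not examined, so their separate counts are uncertain.

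Ibsp, Dmp1 and Spp1 lie in 1 cluster of mineral-binding genes on chromosome 5, together with Dspp and Mepe, within 270 kb. Ibsp (ENSMUSG00000029306, 104299171 to 104311469), bone sialoprotein, had 231 UMIs or 26.5 CPM (23.2 to 30.2), in 175 spots (8.79%; 7.58% to 10.1%, Clopper-Pearson interval). Up to 9 of them fell in 1 spot. Its neighbours were close to absent: Spp1 (ENSMUSG00000029304, 104435118 to 104441050) had 12 UMIs, Dmp1 (ENSMUSG00000029307, 104202613 to 104214102) had 5, Mepe had 3 and Dspp had 0, which allows a share of up to 0.151% of spots with a UMI (3 of 1992). Ibsp was the only gene of the cluster with over 50 UMIs in this library. Spp1, Sp7, Bglap and Dmp1 had 36 UMIs in all. Ibsp, Runx2, Alpl and Sparc, with over 50 UMIs each, carry the RNA comparisons.

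The promoters of Ibsp, Spp1, Runx2 and Bglap are shown because the RNA or the accessibility of these genes is compared below. Each runs from 250 bases before to 50 bases after a start in RefSeq, on the gene's own strand and in GRCm38.p6. The windows are chr5:104299037-104299336 (+) for Ibsp, chr5:104434861-104435160 (+) for Spp1, chr17:44814578-44814877 (-) for Runx2 and chr3:88384417-88384716 (-) for Bglap. Capitals mark exact matches, on either strand, of the RUNX motif ACCACA and of the TATA motif TATAAA.
Ibsp: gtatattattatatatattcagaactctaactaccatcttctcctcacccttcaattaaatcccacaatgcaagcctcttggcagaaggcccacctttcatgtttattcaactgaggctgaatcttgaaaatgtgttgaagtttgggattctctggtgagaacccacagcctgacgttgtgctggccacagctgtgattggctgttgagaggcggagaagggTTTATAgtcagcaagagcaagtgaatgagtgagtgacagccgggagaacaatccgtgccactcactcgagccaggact
Spp1: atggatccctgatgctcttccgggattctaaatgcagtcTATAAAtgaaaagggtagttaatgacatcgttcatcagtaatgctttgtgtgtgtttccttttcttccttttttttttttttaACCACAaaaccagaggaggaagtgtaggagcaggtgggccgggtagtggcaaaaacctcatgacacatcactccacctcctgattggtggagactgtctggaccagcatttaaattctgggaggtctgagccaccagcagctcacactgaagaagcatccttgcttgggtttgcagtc
Runx2: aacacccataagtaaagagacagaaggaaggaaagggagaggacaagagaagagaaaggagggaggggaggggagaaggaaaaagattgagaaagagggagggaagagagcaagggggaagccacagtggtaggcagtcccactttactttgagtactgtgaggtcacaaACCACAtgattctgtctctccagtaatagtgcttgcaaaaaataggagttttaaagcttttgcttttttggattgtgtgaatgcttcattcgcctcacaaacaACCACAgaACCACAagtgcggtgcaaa
Bglap: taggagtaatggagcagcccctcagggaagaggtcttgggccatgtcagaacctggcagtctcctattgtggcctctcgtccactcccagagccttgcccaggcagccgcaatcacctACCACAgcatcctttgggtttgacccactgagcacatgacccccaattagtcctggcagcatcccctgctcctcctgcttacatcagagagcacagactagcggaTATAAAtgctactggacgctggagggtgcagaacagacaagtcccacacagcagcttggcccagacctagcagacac
RefSeq held 10 starts of 7 members, and none for Sp7. RUNX matches were found in 5 of the 10 windows, against 16.8% of 32851 promoters of the same length, and TATA matches in 4 of the 10, against 13.6%. The TATA match began 28 bases before the start in Ibsp and 27 bases before it in Bglap. Runx2 had 3 RUNX matches, with offsets of -80, 23 and 31 bases from its start, and Bglap had 1, with an offset of -132. Motif matches are descriptions of the sequence and not evidence of binding.

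Muscle RNA served as the reference for where in the library the members lay. Muscle-rich spots were the 199 spots (10%) with the highest summed CPM of Acta1 and Ttn (2546 to 11876), and muscle-poor spots were the 996 spots at or below the median (0 to 1137). Ibsp had 50.6 CPM in the muscle-rich spots (36.8 to 67.9, 44 UMIs) and 15.2 in the muscle-poor spots (11.7 to 19.4, 65 UMIs). The ratio was 3.33 (2.22 to 4.95, conditional binomial interval). Of the 44 UMIs, 21 came from 30 spots of 1 second barcode segment, the one with the most muscle RNA, and without it the ratio was 2.07 (1.23 to 3.38). Alpl had a ratio of similar size, 3.35 (2.24 to 4.97), with 51.8 CPM against 15.4. Sparc had 955 CPM against 524, a ratio of 1.82 (1.68 to 1.97), and Runx2 had 57.5 CPM against 34.4, a ratio of 1.67 (1.19 to 2.32). The intervals of Ibsp and Alpl lay apart from that of Sparc, whereas that of Runx2 overlapped all 3. Of the 4 members with at least 20 UMIs in these spots, Ibsp and Alpl were at 2-fold or more, as were 5.74% of 14149 genes, and 0 were at 0.5-fold or less, as were 3.95%. After spots were thinned to 2000 UMIs, muscle-rich and muscle-poor spots were grouped again by the thinned counts. The ratio was then 1.90 for Ibsp (1.01 to 3.41), no longer at 2-fold, and 2.14 for Alpl (1.03 to 4.15). Without thinning, spots with at least 2000 UMIs gave 3.42 for Ibsp (2.27 to 5.10) and 3.57 for Alpl (2.39 to 5.30). The parts of depth and of the new grouping in the fall were not tested. In the main comparison the median ratio over the 14149 genes was 0.979. Bglap and Dmp1 had 0 UMIs in the muscle-rich spots and 9 and 3 in the muscle-poor spots. The ratio was 6.32 for Acta1 and 4.79 for Ttn, which define the groups, and 0.997 for Ctcf (0.760 to 1.29). More cells of a type and more RNA per cell cannot be told apart in these spots. Muscle-rich spots also had more fragments (median 31986 against 20793.5) and a larger share of fragments under 150 bp (54.4% against 45.8%), and the part of this in the RNA ratios was not tested.

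**Figure D1:**
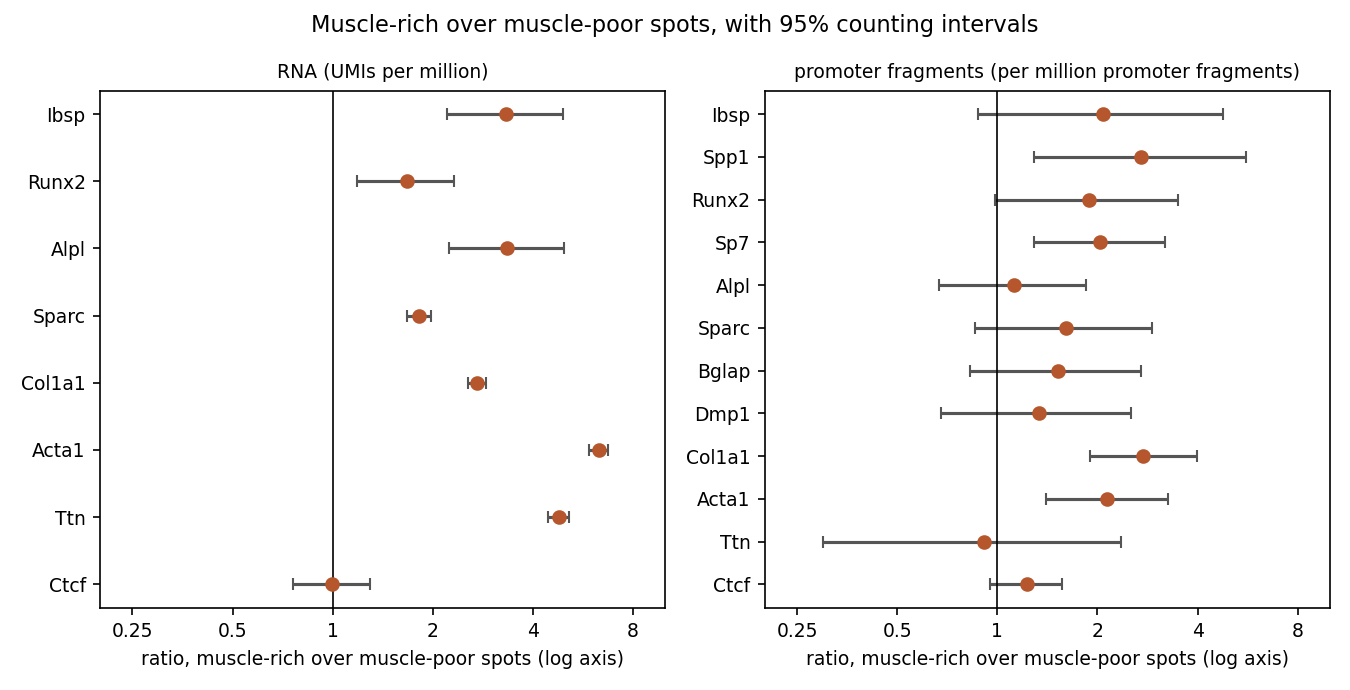
Ratio of muscle-rich over muscle-poor spots for RNA (left) and promoter fragments (right), on log axes with 95% counting intervals, for the members with at least 20 counts and for comparison genes. Ibsp and Alpl have RNA ratios of 3.33 and 3.35, between the ratio of 1.82 for Sparc and that of 4.79 for Ttn, while Ctcf lies at 0.997.

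Other genes of bone were read from lists of known genes, and those named are the 4 with most UMIs in a list or those past 2-fold. In the list of osteoblast matrix and mineral genes, 7 of 14 measured genes were at 2-fold or more, with a median ratio of 2.07: Col1a1 (2.73, 2.56 to 2.90) and Col1a2 (2.55, 2.29 to 2.84), the chains of type I collagen, and Bgn, Lox, Postn, Mgp and Ifitm5. Smpd3, a sphingomyelinase needed for mineralisation, was not among them (0.868, 0.700 to 1.07), and Dspp and Phospho1 had 0 UMIs in these spots. Of 13 measured osteoblast regulators, 1 was at 2-fold or more (Pth1r, the parathyroid hormone receptor) and 1 at 0.5-fold or less (Dlx6). Among their most abundant genes, Fgfr2, Cdh11 and Bmpr1a had ratios between 0.993 and 1.21. Of 4 measured osteoclast genes 1 was at 2-fold or more, and of 8 chondrocyte genes 0 were, with 2 at 0.5-fold or less (Sox9 and Hapln1). The intervals of Sox9 (0.203 to 1.003) and Hapln1 (0.00623 to 1.63) held 1. The chondrocyte list as a whole had a summed ratio of 1.62 (1.46 to 1.81). The cartilage collagens Col11a1 and Col2a1 had ratios of 1.80 (1.57 to 2.05) and 1.53 (1.02 to 2.23).

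Genes of other cell types moved in the same comparison. The skeletal muscle list had 12 of 12 genes at 2-fold or more and a summed ratio of 3.997 (3.91 to 4.08), from 17872 CPM against 4471. The fibroblast and meninges list had 5 of 10, with 1647 CPM against 740 (2.23, 2.09 to 2.37), Igf2 and Col3a1 among them. The summed ratio was 1.46 for mural genes (1 of 8 at 2-fold or more), 1.21 for microglia and macrophages (0 of 9), 1.10 for endothelium (0 of 8), 1.23 for erythroid genes (0 of 5), 1.02 for radial glia and astrocytes (1 of 10) and 0.859 for neurons (0 of 10). The ratio of Sparc (1.82, 1.68 to 1.97) lay below that of the fibroblast list. Col1a1, Col1a2 and Sparc are made by fibroblasts as well as osteoblasts.

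Sharing of single spots with muscle was less informative, because muscle RNA was nearly everywhere. At full depth, 97.1% of spots with an Ibsp UMI also had an Acta1 or Ttn UMI, but so did 96.9% of all kept spots. After each spot was thinned to 2000 UMIs, which left out 161 shallower spots, 90.2% of the 1831 spots had an Acta1 or Ttn UMI. The share was 91.7% among 84 spots with Ibsp (83.6% to 96.6%), 89.5% among 124 spots with Runx2 (82.7% to 94.3%), 90.7% among 86 spots with Alpl (82.5% to 95.9%) and 90.3% among 1223 spots with Sparc (88.5% to 91.9%). In the other direction, Ibsp was seen in 4.66% of spots with muscle RNA (3.70% to 5.79%) and in 3.91% of those without (1.59% to 7.89%). At this depth no difference between spots with and without muscle RNA was detectable for Ibsp, whereas the ratios above, which rest on the amount of muscle RNA, lay above 1. No kind of spot that should lack these RNAs was available as a background.

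Levels were also compared between barcode segments, whose place on the tissue is not given in the sources used here. Of the 48 second segments among kept spots, 6 had the highest CPM of Acta1 and Ttn, and these held 14% of spots, 17.3% of UMIs and 149 of the 199 muscle-rich spots. They held 110 of 231 Ibsp UMIs, or 47.6% (41.0% to 54.3%). The share was 38.7% for Alpl (32.3% to 45.5%), 30.5% for Runx2 (25.7% to 35.7%) and 27.9% for Sparc (26.7% to 29.2%), beside 39.1% for Acta1, 33.5% for Ttn and 17.8% for Ctcf. Ibsp and Alpl were past 34.5%, which is 2 times the share of all UMIs, as were 4.36% of 15739 genes. Of the rarer members, Spp1 had 5 of 12 UMIs in these segments (15.2% to 72.3%), Bglap 0 of 13 (0% to 24.7%) and Dmp1 0 of 5 (0% to 52.2%). These 3 intervals hold the 17.3% of all UMIs, so no difference is read from them. Sp7 had 4 of 6 (22.3% to 95.7%), on very few UMIs.

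Within those 6 segments the members did not follow muscle RNA closely. The segment with the most muscle RNA (3883 CPM) had 52 Ibsp UMIs or 237 CPM, spread over 25 of its 47 spots. The segments ranked second to sixth had 33.7, 64.5, 32.7, 10.5 and 104 CPM of Ibsp. Sparc was highest in the sixth, with 1490 CPM, against 1103 in the first. Of the 6, the fifth had the lowest Ibsp, Runx2 (28.1 CPM) and Alpl (14.1 CPM).

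Split by these segments, the counts were too few to place the Ibsp difference within or between them. Inside the 6 segments, 149 muscle-rich spots had an Ibsp ratio of 5.15 over 18 muscle-poor spots, with an interval of 0.876 to 208. Outside them, 50 muscle-rich spots had a ratio of 0.511 over 978 muscle-poor spots (0.0127 to 2.95). Both intervals hold 1 and are wide. The ratio of Runx2 was 0.898 inside (0.382 to 2.58) and 1.16 outside (0.371 to 2.77), and that of Alpl was 1.68 inside (0.536 to 8.46) and 1.56 outside (0.313 to 4.76). Sparc, with the most UMIs, kept an interval above 1 on both sides, with 1.29 inside (1.003 to 1.68) and 1.64 outside (1.34 to 1.99). This split was chosen after the data had been seen.

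**Figure D2:**
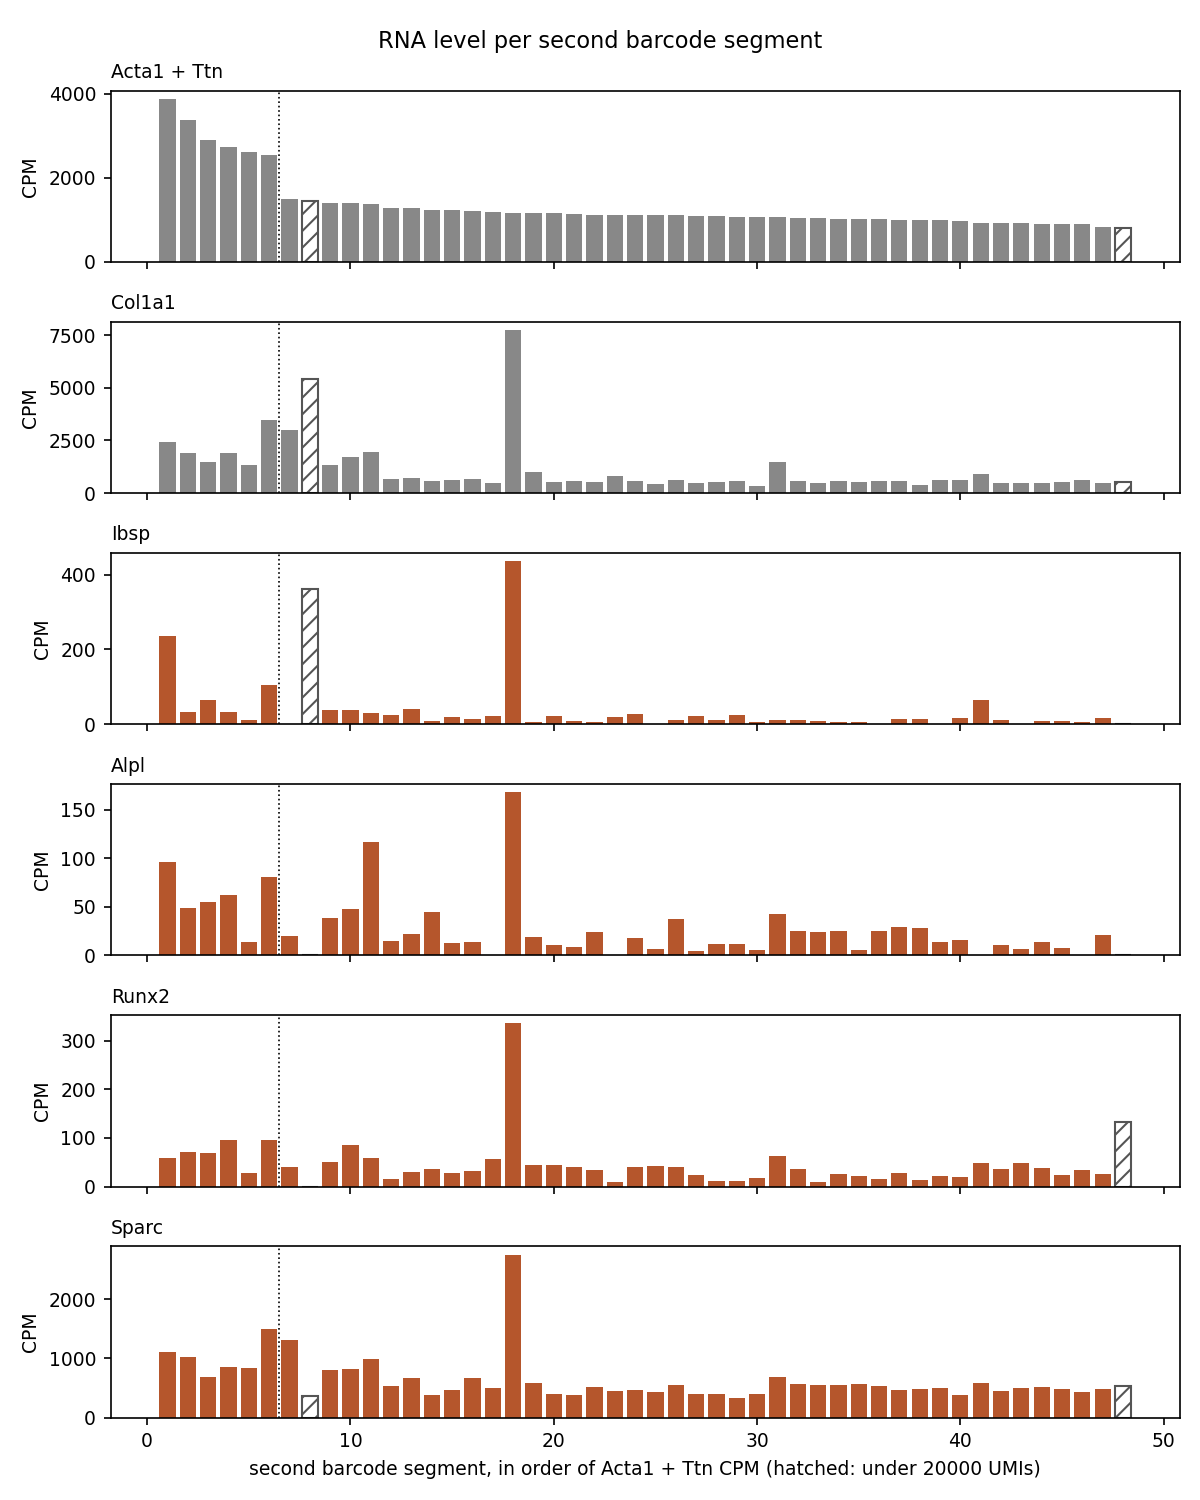
CPM of Acta1 and Ttn together, Col1a1, Ibsp, Alpl, Runx2 and Sparc in each of the 48 second barcode segments, ordered by muscle RNA; the dotted line closes the 6 segments with the most, and hatched bars mark segments under 20000 UMIs. Ibsp is at 237 CPM in the first segment and 436 CPM in the 18th, against a median of 13.98 over 46 segments.

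Over the 46 second segments with at least 20000 UMIs, Ibsp ran from 0 to 436 CPM with a median of 13.98, and 5 segments had none. Runx2 ran from 9.82 to 336 CPM (median 35.9), Alpl from 0 to 168 (median 18.4, with 4 at 0) and Sparc from 335 to 2752 (median 528). Ctcf ran from 42.3 to 201 (median 79.1). The variance of the counts over the mean that depth predicts was 14.9 for Ibsp over second segments and 1.85 over first segments. It was 4.52 and 1.14 for Alpl, 3.71 and 1.21 for Runx2, 21.7 and 2.67 for Sparc, and 1.11 on both for Ctcf. Ibsp was at least as uneven as 99.9% of 5915 genes of similar UMI count over second segments, and as 99.5% over first segments. All 4 members were thus more uneven along the second segment than along the first. So were Acta1 (49.7 and 8.80) and Col1a1 (123 and 4.17).

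The second segment with the highest Ibsp level lay outside the 6 and was picked out after its values were seen. It held 12 spots and 29800 UMIs, 0.342% of the library, and ranked 18 of 48 by muscle RNA. Its spots were shallow, with a median of 2044 UMIs and 9464.5 fragments. Ibsp had 13 UMIs there, or 436 CPM, 17.4 times the level in all other spots (9.10 to 30.3). Runx2 had 10 UMIs and a ratio of 8.80 (4.18 to 16.4), Alpl 5 UMIs and 6.71 (2.16 to 15.9), and Sparc 82 UMIs and 4.58 (3.64 to 5.70). Spp1 had 2 UMIs, Bglap 1, Dmp1 1 and Sp7 0. The segment was chosen for its Ibsp level, so the rank and the high ratio of Ibsp follow from that choice. Runx2, Alpl and Sparc also had their highest CPM of the 46 segments here. The share of all genes that did so is not given, and single CPM values are unsteady at this depth. For Spp1, Bglap and Dmp1 no rank is read, since 1 UMI at this depth already gives 33.6 CPM.

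Type I collagen was high in that segment and muscle RNA was not, while other lists moved as well. Col1a1 had 231 UMIs and a ratio of 8.66 (7.57 to 9.88), Col1a2 had a ratio of 8.03 (6.31 to 10.1), and Ifitm5, a membrane protein of osteoblasts, had 4 UMIs and a ratio of 21.2 (5.58 to 57.4). The segment is too shallow for counts of single genes past 2-fold. The osteoblast matrix list summed to 6.31 (5.66 to 7.02), most of it type I collagen, and the osteoblast regulators summed to 1.89 (1.41 to 2.49). Postn was at 1.46 (0.176 to 5.31). The summed ratio was 2.23 for fibroblasts and meninges (1.70 to 2.88), 2.22 for microglia and macrophages (1.11 to 3.98), 2.10 for chondrocytes (1.33 to 3.16) and 1.48 for erythroid genes (1.31 to 1.65), and the part of these lists in the ratios of the members was not tested. Acta1 had a ratio of 0.824 (0.488 to 1.30), Ttn 0.832 (0.485 to 1.33) and the muscle list 0.887 (0.760 to 1.03). The segment also ranked first for Ctcf, with 6 UMIs and a ratio of 2.40 (0.878 to 5.25). The neuron list was at 0.809 (0.714 to 0.914). Without the pair of spots that held 5 or more Ibsp UMIs, the Ibsp ratio fell to 1.88 on 1 UMI, while Sparc was at 3.62 (2.65 to 4.83) and Col1a1 at 7.07 (5.92 to 8.39).

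Most Ibsp RNA was spread thinly, and a few spots held several UMIs. Of 175 spots with Ibsp, 149 had 1 UMI, 26 had 2 or more, 11 had 3 or more and 4 had 5 or more. These 4 held 9, 9, 7 and 5 Ibsp UMIs, 12.99% of all, and in the same order 63, 52, 51 and 46 Col1a1 UMIs and 10, 19, 21 and 15 Sparc UMIs. None of the 4 was muscle-rich, with 2312, 1373, 438 and 1721 CPM of Acta1 and Ttn. The first pair lay in the segment with the most muscle RNA and the second pair in the segment ranked 18. The spot with 5 Ibsp UMIs also held 3 UMIs of Runx2, 2 of Spp1, 1 of Bglap and 1 of Dmp1, and 0 of Alpl. Of the 6 spots with the highest Col1a1 CPM, 5 had 3 or more Ibsp UMIs and together the 6 held 33. Of all 11 spots with 3 or more Ibsp UMIs, however, 3 were muscle-rich and 8 lay in the 6 muscle segments, and the lowest ranks by Col1a1 CPM were 499 and 838 of 1992. Of the 4 spots, 1 was low in muscle RNA (438 CPM, against a median of 1137 over all spots) and 3 lay above that median.

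**Figure D3:**
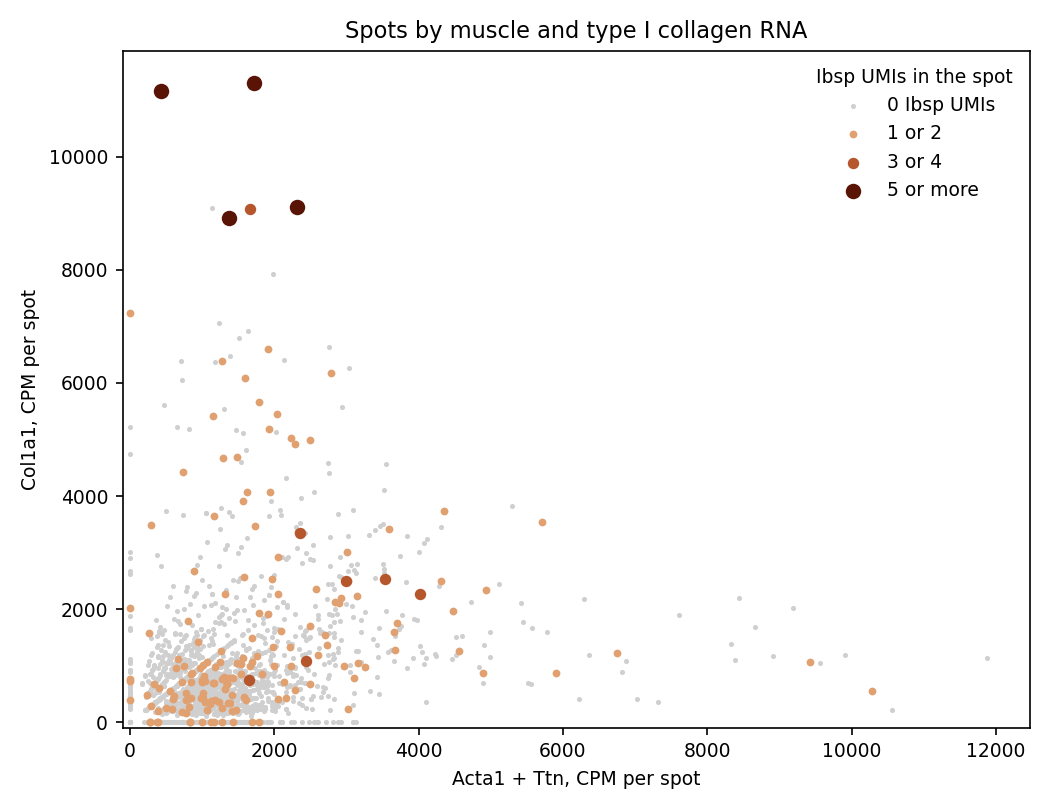
Each point is a spot, placed by its CPM of Acta1 and Ttn (horizontal) and of Col1a1 (vertical) and coloured by its Ibsp UMIs. The 4 spots with 5 or more Ibsp UMIs lie among the 6 with the highest Col1a1 CPM and between 438 and 2312 CPM of muscle RNA.

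Splitting spots by Ibsp itself showed which RNAs went with it. The 175 spots with an Ibsp UMI had a median of 4706 UMIs, against 4090 in the 1817 spots without, and a median of 1422 CPM of muscle RNA against 1115. Alpl was at 57.1 CPM with Ibsp and 22.0 without, a ratio of 2.60 (1.86 to 3.58), the highest of all genes with at least 100 UMIs. Runx2 had a ratio of 1.91 (1.42 to 2.53) and Sparc of 1.39 (1.29 to 1.51). The spots with Ibsp held 10.05% of all UMIs, and of the rarer members they held 5 of 12 UMIs for Spp1, 3 of 5 for Dmp1, 3 of 13 for Bglap and 2 of 6 for Sp7. These 4 members had under 20 UMIs each, the minimum for a comparison, so no ratio is read for them. The spot with 5 Ibsp UMIs alone held 2 of the Spp1 UMIs, 1 of Bglap and 1 of Dmp1. Of 3 other members with at least 20 UMIs, Alpl was at 2-fold or more, as were 1.96% of 15738 genes, and 0 were at 0.5-fold or less, as were 5.28%. Among osteoblast matrix genes, 5 of 14 were at 2-fold or more: Ifitm5 (4.25, 2.33 to 7.52), Postn (2.13), Lox (2.10), Col1a1 (2.09) and Col1a2 (2.06). The muscle list had a ratio of 1.39 (1.35 to 1.42) with 0 of 12 genes at 2-fold or more, and the neuron list of 0.945. Without the 4 spots with 5 or more Ibsp UMIs, Col1a1 was at 1.84 (1.73 to 1.95), below 2-fold. Of 17 osteoblast regulators 2 were at 2-fold or more (Dlx5 and Tnfrsf11b), with a median ratio of 1.09 and a summed ratio of 1.18 (1.10 to 1.27), and of 6 osteoclast genes 1 was (Calcr), with a summed ratio of 1.44 (1.05 to 1.94). The chondrocyte list had 1 of 10 (Col11a2) and a summed ratio of 1.62 (1.47 to 1.78), and the fibroblast and meninges list 0 of 11 and 1.28 (1.19 to 1.37). The part of these lists and of depth in the ratios of the members was not tested.

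The association with Alpl and Runx2 was seen inside the 6 muscle segments and was not detectable outside them. Inside, 69 spots with Ibsp against 210 without gave 2.49 for Alpl (1.58 to 3.89), 1.97 for Runx2 (1.29 to 2.96), 1.24 for Sparc (1.10 to 1.39) and 1.57 for Col1a1 (1.45 to 1.69). Acta1 was then lower in spots with Ibsp, at 0.889 (0.807 to 0.977), and Ttn was at 0.934 (0.839 to 1.04). Outside, 106 spots against 1607 gave 1.26 for Alpl (0.636 to 2.29), 1.20 for Runx2 (0.721 to 1.91), 1.09 for Sparc (0.968 to 1.23) and 1.47 for Col1a1 (1.34 to 1.62). The difference between inside and outside was not tested, and the intervals of Alpl and Runx2 overlapped. Ibsp and Col1a1 went together on both sides. The spots with Ibsp outside include the pair with 51 and 46 Col1a1 UMIs described above, and the outside ratio without that pair is not given.

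**Figure D4:**
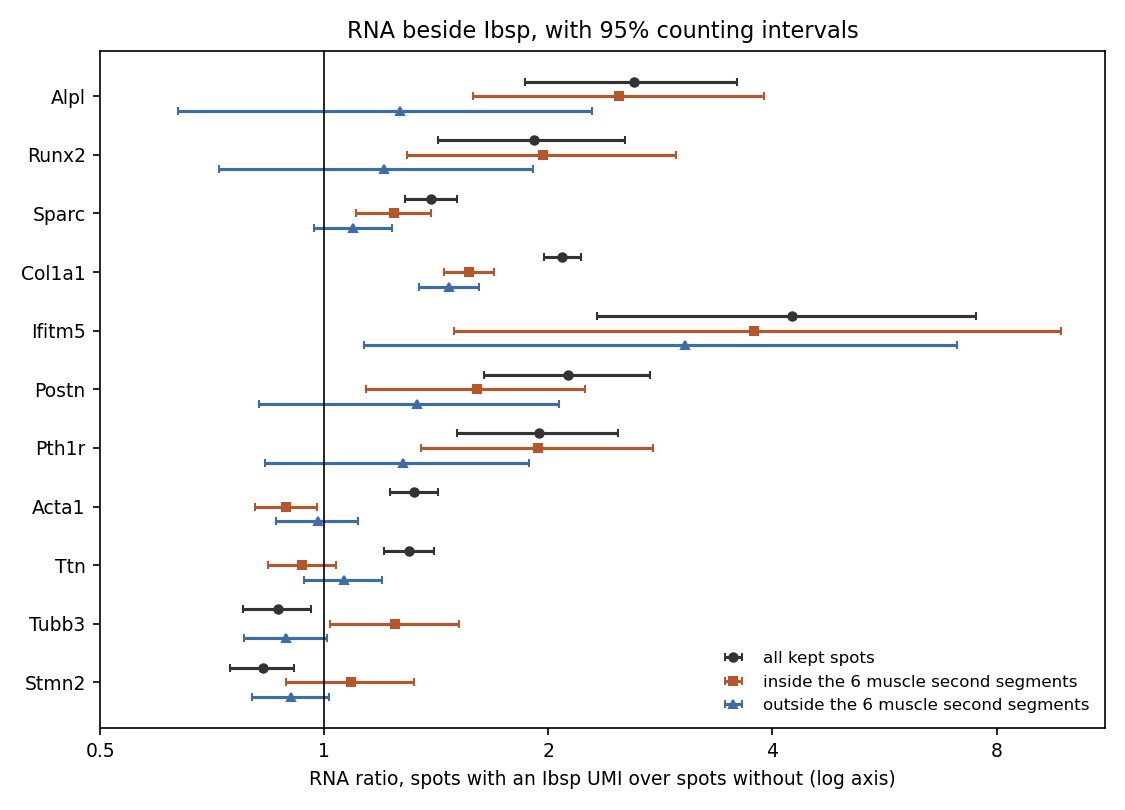
Ratio of RNA in spots with over spots without an Ibsp UMI, on a log axis with 95% counting intervals, for all kept spots and inside and outside the 6 muscle segments. Alpl is at 2.60, 2.49 and 1.26 in that order, and Col1a1 is above 1 in all 3.

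At equal depth the sharing of spots was modest. Among spots thinned to 2000 UMIs, 9.52% of those with Ibsp had Alpl (4.20% to 17.9%) against 4.46% of those without, and 10.7% had Runx2 (5.02% to 19.4%) against 6.58%. Runx2 shared most clearly with Sparc, which was seen in 77.4% of spots with Runx2 (69.0% to 84.4%) and in 66.0% of those without (63.7% to 68.3%).

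Likeness of level over second segments, as Pearson's r of log2(CPM + 10), is a description in which all points share 1 library and differ in depth. Over 48 segments, Ibsp was most like Col1a1 (r = 0.727), Ltbp2 (0.724) and Rpl41 (0.708). Runx2 was most like Boc (0.729), Fkbp10 (0.727) and Bmpr1a (0.689), Alpl like Pth1r (0.729), Mfap4 (0.718) and Aspn (0.706), and Sparc like Col6a1 (0.779), Col1a1 (0.776) and Emp3 (0.762). Over the 46 deeper segments, Col1a1 came first for Runx2 (0.753) and Sparc (0.931) and was in the first 3 for Ibsp (0.669) and Alpl (0.711). Between Ibsp and Acta1, r was 0.415 over 48 segments and 0.531 over 46.

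Chromatin at the promoters gave a second readout for all 8 members, including those with few UMIs. Fragments were counted within 1 kb of the start in the reference annotation. Among regulators, Sp7 had 147 fragments and Runx2 77. Alpl had 135, Bglap 109, Sparc 97, Dmp1 76, Spp1 54 and Ibsp 52. Against a median of 160 over 21625 protein-coding genes, the members lay between the 25.3 and 47.7 percentiles. Counts depended on the start taken, with 314 fragments at the RefSeq start of Sparc and 200 at a second RefSeq start of Alpl. Sp7, with 6 UMIs, had 147 promoter fragments, which is below that median. Fragments at a gene with few UMIs were not particular to Sp7: Mepe and Dspp, with 3 and 0 UMIs, had 22 and 29.

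In muscle-rich over muscle-poor spots, scaled to 1000000 promoter fragments, all 8 members were above 1 at the starts used, although Alpl was at 0.973 (0.600 to 1.53) at its second RefSeq start, which had more fragments. Spp1 was at 2.70 (1.29 to 5.60, 16 and 18 fragments), Ibsp at 2.08 (0.875 to 4.78, 11 and 16 fragments) and Sp7 at 2.04 (1.29 to 3.19, 35 and 52 fragments). Those 3 of 8 were at 2-fold or more, as were 3.30% of 17883 promoters, and 0 were at 0.5-fold or less, as were 5.31%. Runx2 was at 1.88 (0.984 to 3.51), Sparc at 1.61 (0.854 to 2.92), Bglap at 1.52 (0.826 to 2.70), Dmp1 at 1.34 (0.677 to 2.52) and Alpl at 1.13 (0.665 to 1.84). Intervals above 1 were found for Spp1 and Sp7, and for the sum of the 8, with 1.66 (1.36 to 2.03). The 3 calls depended on the window and the spots taken. Within 500 bp Spp1 was at 1.75 (0.636 to 4.47), within 2 kb Sp7 was at 1.71 (1.16 to 2.49), and Ibsp was at 1.61 at its RefSeq start (0.631 to 3.81) and at 0.372 with the top 5% of spots (0.00886 to 2.39). The promoter of Col1a1 was at 2.75, Acta1 at 2.14, Ttn at 0.910 and Tubb3 at 0.231, beside a median of 0.998. For Sparc the RefSeq start has a genomic offset of -3103 bp from the one used, which is downstream on this gene's minus strand, and 314 fragments around it gave 1.87 (1.39 to 2.50). The excess of short fragments in muscle-rich spots, given above, moves with these ratios, and its part in them was not tested.

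By the Ibsp RNA of the same spot, 7 of 8 promoters were above 1, beside a median of 0.990 over all promoters. Bglap, the marker of mature osteoblasts, was at 2.39 (1.47 to 3.74, 26 and 83 fragments), Runx2 at 2.16 (1.18 to 3.75) and Sp7 at 1.87 (1.20 to 2.83). Bglap and Runx2 were at 2-fold or more, as were 1.15% of 19439 promoters. The promoter of Ibsp itself was at 1.81 (0.811 to 3.67), Spp1 at 1.73, Sparc at 1.39, Alpl at 1.25 and Dmp1 at 0.772. The sum over the 8 was 1.65 (1.36 to 1.99), with 1.46 outside the 6 segments (1.05 to 1.97). Bglap was at 1.93 inside them (0.930 to 3.89) and 2.45 outside (1.16 to 4.70). Runx2 was below 2-fold on both sides, at 1.94 (0.816 to 4.46) and 1.85 (0.646 to 4.37), and Sp7 had intervals that held 1, at 1.52 (0.861 to 2.61) and 1.24 (0.481 to 2.67). Ibsp was at 3.23 inside (1.02 to 10.5, 8 and 7 fragments) and 0.777 outside (0.0906 to 3.02). Of other promoters, Col1a1 was at 1.74 (1.23 to 2.43), Acta1 at 0.639 (0.311 to 1.18), and the neuronal genes Tubb3 and Stmn2 at 0.596 (0.408 to 0.846) and 0.646 (0.407 to 0.980). Their part in the ratios of the members was not tested. Over all kept spots, each member's promoter set against its own RNA gave intervals that held 1, with 1.55 for Runx2, 1.23 for Alpl and 0.949 for Sparc. The 7 members other than Sparc, split by RNA of any of the 7, together gave 1.36 (1.16 to 1.60).

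Peaks gave the same comparisons at single sites. Within 20 kb of the members lay 61 peaks, and 60 had enough cut sites. In muscle-rich over muscle-poor spots 20 were at 2-fold or more, as were 10% of 89674 peaks, and 1 was at 0.5-fold or less, as were 16.7%. Their median was 1.49, against 0.945 over all peaks. Sp7 had 5 of 8 at 2-fold or more, Runx2 5 of 19, Sparc 4 of 12, Alpl 2 of 8, Bglap 2 of 5, Ibsp 1 of 3, Dmp1 1 of 1 and Spp1 0 of 4. The peak counted for Ibsp (2.13, 1.14 to 3.90) lies 29.3 kb downstream of its start, inside the neighbouring gene Mepe. The peak inside Ibsp was at 1.16 (0.544 to 2.31). The Runx2 promoter peak was at 2.50 (1.55 to 4.03), and a peak 76.5 kb into the gene was at 3.77 (2.30 to 6.22). Of the other promoter peaks, Dmp1 was at 2.30 (1.28 to 4.07) and Bglap at 1.58 (0.934 to 2.61). Alpl was at 1.47 (0.891 to 2.36) and Sp7 at 1.32 (0.800 to 2.12), so the Sp7 promoter peak was below 2-fold. The peak at 0.5-fold or less lay 1.95 kb upstream of the Spp1 start, at 0.281 (0.0321 to 1.14, 2 and 22 cut sites). The peak with the highest ratio, 4.12 (2.51 to 6.86), lies 5.39 kb downstream of the Bglap start, at its paralogue Bglap2. Cut sites of 1 fragment are not independent, so these intervals are too narrow.

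By Ibsp RNA, 12 of 61 peaks were at 2-fold or more, as were 4.18% of 91103 peaks. Ibsp had 2 of 4, both downstream of the gene. The peak inside Ibsp itself went the other way, at 0.254 (0.0301 to 0.958, 2 and 61 cut sites). Sp7 again had 5 of 8, among them its promoter peak (2.02, 1.32 to 2.99) and a peak 3.52 kb into the gene (2.85, 1.96 to 4.07). The Bglap promoter peak, with 150 cut sites, was at 3.32 (2.29 to 4.75), and the Runx2 promoter peak was at 2.92 (1.88 to 4.43). The motifs shown above for Runx2 and Bglap lie in these promoter peaks. Sparc's peak at chr11:55419553-55420481, over its RefSeq start, was at 2.09 (1.68 to 2.59). Sp7 and Bglap had 6 and 13 UMIs, but UMIs and cut sites are unlike units from libraries of unlike depth, so the counts are not compared. Whether the cut sites follow the activity of these genes was not tested.

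**Figure D5:**
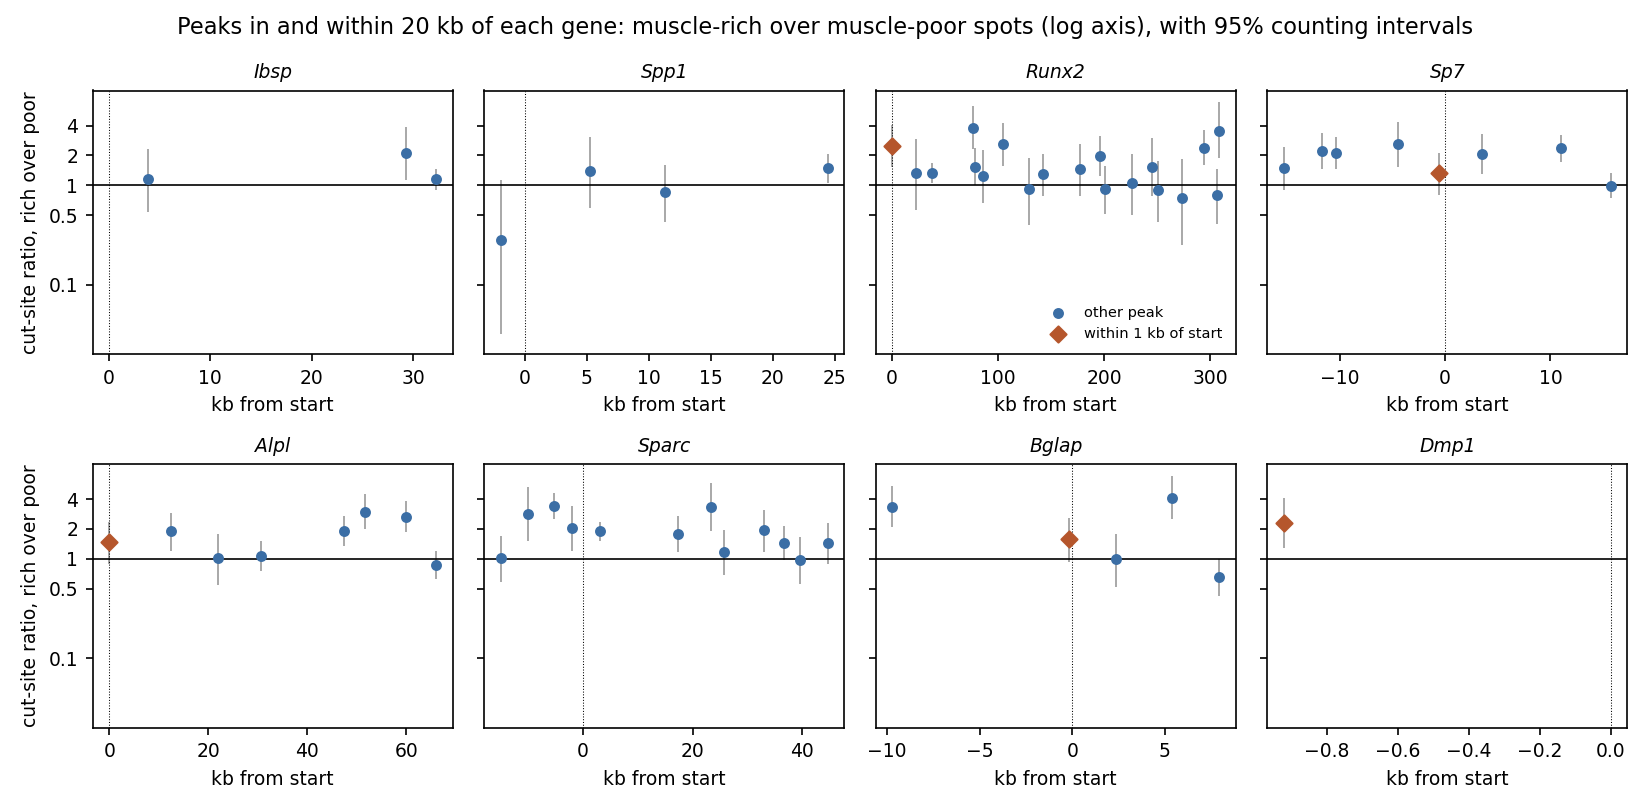
Cut-site ratio of muscle-rich over muscle-poor spots for each peak near a member, on a log axis, against distance from the start in kb; diamonds mark peaks within 1 kb of the start. Of 60 peaks, 20 lie at 2 or above.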

How the data were processed

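Per the labels and file headers, the authors made whole-number UMI counts per gene and cut-site counts per peak with cellranger-arc 2.0.1 on mm10 (GRCm38), and deposited them as 1 matrix with a fragment file. The submitters' processing notes also name Seurat 4.0. How the 1993 matrix barcodes were chosen among the 2500 in the fragment file, and whether counting used strand, is not given in the sources used here. The filter asked for 500 to 6000 detected genes and no more than 20% of UMIs from mitochondrial genes, and left 1992 spots.

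The members and gene lists were chosen with earlier results of these data known. Counts were summed over spots and divided by total UMIs (CPM). Promoter fragments were divided by all promoter fragments. With 1 library per assay no test between conditions was possible, and all intervals (95%, exact Poisson, Clopper-Pearson or conditional binomial) cover counting error only. Genes needed 20 counts in a comparison. Genes named are the members, their paralogues and neighbours, Acta1, Ttn and Ctcf, the 4 genes of each list with most UMIs and the 3 most alike genes per member with at least 50 UMIs. List genes past 2-fold, and the genes leading beside Ibsp, were named after their values were seen. Some genes that this rule takes in are not reported here. Thinning used seed 0. Doublets were not called, since a spot can hold several cells. The ratio was tested on simulated Poisson counts for muscle-rich over muscle-poor spots. Among 2884 genes with 20 to 50 expected UMIs, 98.5% of 200 genes raised 4-fold were at 2-fold or more, against 4.74% of unchanged genes. Among 5625 genes with 50 to 200, it was 100% against 0.406%. The 4 members compared were more uneven than Poisson counts over second segments, with a variance over mean from 3.71 for Runx2 to 21.7 for Sparc. These rates therefore do not give the reliability of the member ratios. Promoters came from RefSeq tables of GRCm38.p6. Python 3.11.15, numpy 2.4.6, scipy 1.17.1, pandas 2.3.3 and matplotlib 3.10.9 were used.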

Additional observations from a re-analysis of the deposited data

Results flagged for a closer look

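The fragment file holds 507 barcodes outside the count matrix, which no comparison used. They carried 83 fragments at the promoters of the 8 members (66.1 to 103, exact Poisson interval), 163 per 1000000 promoter fragments against 121 in the kept spots. Of these, 19 lay at Bglap, 14 at Sp7, 13 at Sparc and 5 at Ibsp.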

How the results depend on the processing

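No paired analysis was possible because each assay has 1 library, and for the same reason no replicate could be left out. Of 210 alternatives over 56 results, 60 of them chosen after seeing the data, 164 left a value within its counting interval or a count within 1.5 times, 42 moved it further and 4 reversed it. The cause was not tested. Reversed were the muscle-rich over muscle-poor RNA ratios of Ibsp outside the 6 muscle segments (0.511) and of Runx2 inside them (0.898), the promoter ratio of Ibsp with the top 5% of spots (0.372) and that of Alpl at its RefSeq start with most fragments (0.973). Thinning to 2000 UMIs, with spots grouped again by the thinned counts, gave RNA ratios of 1.90 for Ibsp and 2.14 for Alpl. It left 1 member at 2-fold or more. Inside the segments the ratio was 5.15 for Ibsp, 1.68 for Alpl and 1.29 for Sparc, with 1 member at 2-fold or more. Outside it was 1.16 for Runx2, 1.56 for Alpl and 1.64 for Sparc, with 0 members. Without the segment with the most muscle RNA Ibsp was at 2.07. With the top 20% of spots Sparc was at 1.64. Sparc had 646 CPM without mitochondrial genes and Gm42418. Over 3 in place of 6 segments, the share of Ibsp was 4.02 times that of all UMIs. Sharing of spots with Acta1 or Ttn after thinning to 1000 UMIs was 71.7% for Ibsp, 65.8% for Runx2, 75.8% for Alpl and 69.7% for Sparc, against 69.6% of all spots, and without thinning 97.1%, 97.9%, 98.0% and 96.9%, against 96.9%. At a ratio of 1.5 or more, the lists counted 4 members, 11 osteoblast matrix genes, 4 regulators, 3 osteoclast, 5 chondrocyte, 2 endothelial, 4 mural and 4 glial genes, and with 50 UMIs 0 osteoclast genes. For these counts, and for the counts of members after thinning and inside and outside the segments, the share of all genes is not given. They are therefore not read as results about the members or the lists. In spots with over without Ibsp, values outside the segments were 1.20 for Runx2, 1.26 for Alpl, 1.09 for Sparc and 1.47 for Col1a1, and inside 1.24 for Sparc and 1.57 for Col1a1. Without the 4 spots with 5 or more Ibsp UMIs, Col1a1 was at 1.84. Without the pair of such spots in the segment ranked 18, its ratios were 1.88 for Ibsp, 3.62 for Sparc and 7.07 for Col1a1. Spp1, Sp7, Bglap and Dmp1, with under 20 UMIs each, were below the minimum for the RNA comparisons.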
